A study of Mus musculus with 15 samples.

Results

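The Dlgap, Shank and Dlg genes encode the layered scaffold of the excitatory postsynaptic density, and 10 of them were examined here, Dlgap1, Dlgap2, Dlgap3, Dlgap4, Shank1, Shank2, Shank3, Dlg2, Dlg3 and Dlg4, among the 7740 genes with transcripts in the deposited table. They held 30 of the 10370 listed transcripts. The genes were chosen by family, and with the differences between the groups in these same libraries known, including that transcripts of Dlgap1 differed in opposite directions, so every difference between the groups given here is a description, and no p is offered in its support. RNA was measured in bulk cortex of 12-week-old male C57BL/6 mice, 1 month after the mice had undergone high-frequency head impact (HF-HI), in which anesthetized mice receive repeated head impacts on consecutive days, or after the Sham procedure, in which mice are handled and anesthetized in the same way without impact. There were 7 Sham and 8 HF-HI libraries. Neither group carried a transgene or a drug, and the labels do not say whether each library came from a separate animal, so the tests measure only the spread between these libraries. In bulk tissue, fewer cells of a type and less RNA per cell cannot be told apart.

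Dlg proteins, of which PSD-95 (Dlg4) is the best known, hold glutamate receptors and their auxiliary subunits at the membrane. Dlgap proteins, also called SAPAP or GKAP, bind the guanylate kinase domain of Dlg proteins and, through the tail of their C terminus, the PDZ domain of Shank proteins, which in turn connect to Homer and to the actin cytoskeleton. Many of these genes are known to use several promoters and alternative exons, so that a single gene gives proteins that differ in which partners they can reach.

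Transcripts were listed for all 10 genes, but only a part of the annotated transcripts of each was listed: 7 of 20 for Dlgap1, 1 of 9 for Dlgap2, 3 of 4 for Dlgap3, 3 of 14 for Dlgap4, 3 of 6 for Shank1, 2 of 6 for Shank2, 2 of 9 for Shank3, 4 of 17 for Dlg2, 3 of 8 for Dlg3 and 2 of 22 for Dlg4. The lowest mean of any listed transcript of the table was 107.9 normalized counts, and transcripts of lower abundance were not analysed here. Of the 30 scaffold transcripts, 25 were annotated as protein coding, 4 as carrying a retained intron and 1 as a processed transcript. Only 24 of them contained any base that no other listed transcript of the same gene contained, so the value of the other 6 rests on how the authors' software divided shared reads, and these values are uncertain. Some of the 24 held very few such bases, 2 of 4712 in Dlgap1 ENSMUST00000155016 and 1 of 4885 in Dlg3 ENSMUST00000000901. The values of these 2 are uncertain for the same reason.

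Normalized counts are read counts divided by the size factor of the library, recovered from the deposited variance-stabilized (VSD) values. Libraries held 3496103 to 10582858 reads in the listed transcripts, and 1 read was worth 0.679 to 1.997 normalized counts. Size factors were 0.818 to 1.47 in Sham and 0.501 to 1.22 in HF-HI, so the HF-HI libraries were on the whole less deep. Values with depth as a covariate are given where they end the call of a scaffold transcript. Markers of cortical neurons were listed in full (6 of 6 genes, with a summed level of 49462 to 52033 normalized counts in Sham and 49716 to 54170 in HF-HI). Markers of the striatum, which can be dissected with cortex and in which Dlgap3 and Shank3 are strongly expressed, were listed for 11 of 12 genes. Their summed level was 11004 to 16322 in Sham and 8361 to 15920 in HF-HI, with 3 transcripts called lower. Ttr was the only 1 of 5 choroid plexus markers listed (35.0 to 6685 in Sham and 21.04 to 8663 in HF-HI). Markers of astrocytes (7 of 7 listed), oligodendrocytes (7 of 7), interneurons (6 of 6), microglia (5 of 7), endothelium (4 of 5) and hippocampus (3 of 7) overlapped between the groups in summed level, with 1 astrocyte and 1 microglia transcript called lower, and 1 transcript of the cortical neurons called higher. The part of these levels was not tested beyond the covariate fits given.

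A scaffold transcript is said to be called when its limma unadjusted p was under 0.05. Of the 30 scaffold transcripts, 5 were called, 3 higher and 2 lower in HF-HI, while of all transcripts 8.83% were called, 4.94% higher and 3.9% lower. With depth as a covariate 4 were called, 4 higher and 0 lower, beside 533 of all 10370 transcripts, 314 higher and 219 lower. Among these 4 was Dlgap1 ENSMUST00000156946, which was not called without the covariate. Nothing is read from these counts, since the genes were selected on the same contrast. None of the 30 had a limma Benjamini-Hochberg adjusted p under 0.1, as was the case in the whole table (0%), and the smallest adjusted p among them was 0.311. No scaffold transcript had groups that did not overlap (0 of 30, against 0.154% of all transcripts). The median VSD difference was 0.01 over the 30 and −0.00 over all transcripts, while the median size of the log2 ratio of group means, regardless of sign, was 0.19 against 0.07. All transcripts are an unlike background here, since 6101 of the 7740 genes had a single listed transcript, as did only Dlgap2 of the 10.

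**Figure D1:**
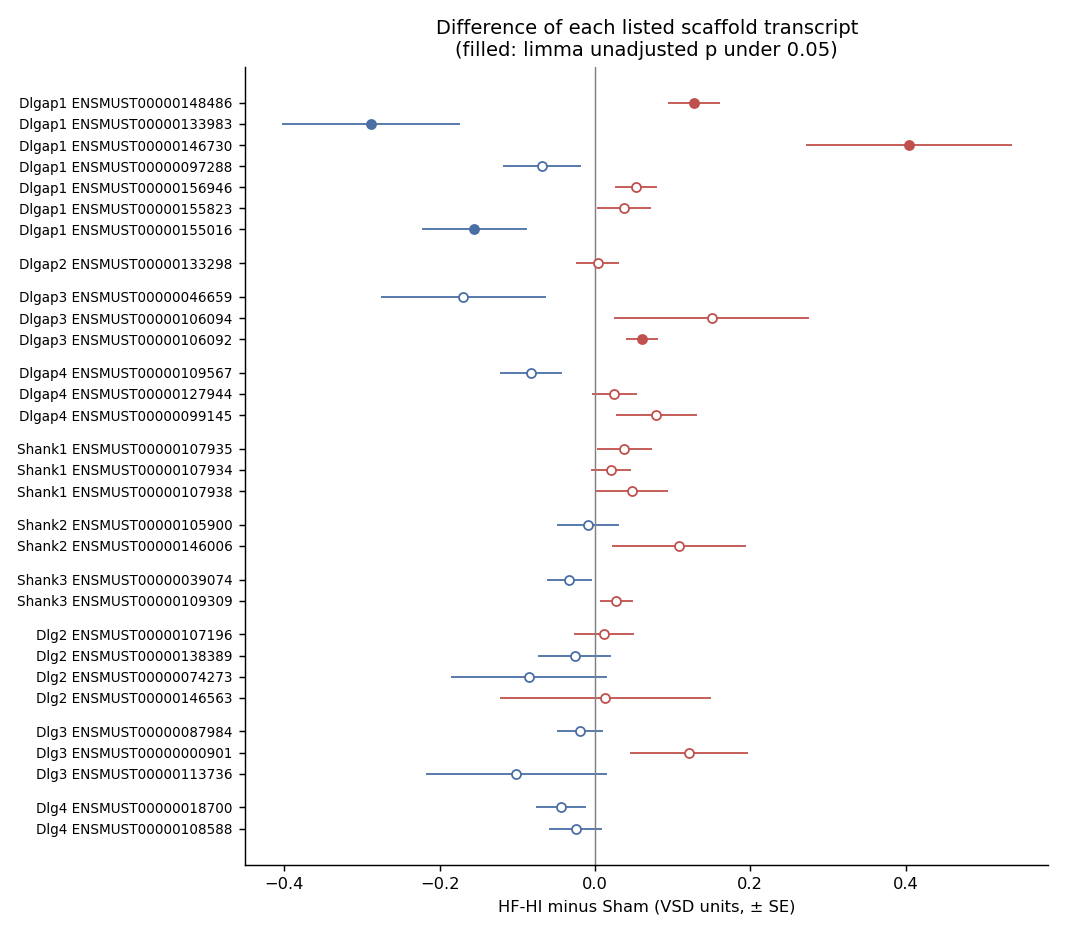
Difference of each of the 30 scaffold transcripts, HF-HI minus Sham, in VSD units on the horizontal axis, with the standard error as a bar. Filled points mark the 5 transcripts with a limma unadjusted p under 0.05, of which 4 belong to Dlgap1 and 1 to Dlgap3, and open points mark the others. Red is higher and blue lower in HF-HI.

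When the reads of all listed transcripts of a gene were summed, the differences were about as large as in other genes. The median size of the log2 difference, regardless of sign, was 0.057 over the 10 gene sums and 0.051 over all gene sums. None of the 10 gene sums was called (voom, limma unadjusted p under 0.05), while 9.43% of all gene sums were, and 0.0129% of all gene sums passed the adjusted threshold. Among only 10 sums, none called cannot be told apart from that share. The summed level of the 4 Dlgap genes was 6568 ± 309 normalized counts in Sham (SD, n = 7) and 6575 ± 338 in HF-HI (SD, n = 8). For the 3 Shank genes the sums were 3477 ± 264 and 3606 ± 210. For the 3 Dlg genes they were 6017 ± 232 and 5940 ± 121. All of these sums overlapped between the groups.

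Gene by gene, the voom log2 difference of the summed reads was 0.05 ± 0.049 (SE) for Dlgap1, 0.02 ± 0.086 for Dlgap2, −0.07 ± 0.069 for Dlgap3, −0.06 ± 0.088 for Dlgap4, 0.10 ± 0.058 for Shank1, 0.10 ± 0.093 for Shank2, −0.03 ± 0.058 for Shank3, 0.01 ± 0.030 for Dlg2, 0.01 ± 0.038 for Dlg3 and −0.07 ± 0.044 for Dlg4. The Shank1 sum alone of the 10 was called in any fit that left out 1 library, with a difference of 0.14 without Sham replicate 4 and of 0.14 without HF-HI replicate 8. With the level of striatal markers as a covariate the differences lay between −0.07 (Dlgap4) and 0.09 (Shank1), with Shank2 at 0.06, Dlg4 at −0.05, Dlgap3 at −0.04 and Shank3 at −0.01, and none was called. With depth as a covariate Dlgap4 and Dlg3 changed sign (0.01 and −0.02), and none of the 10 was called.

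Levels between genes were compared per kilobase of transcript. In Sham, Dlg4 stood at 752 ± 54.4 normalized counts per kilobase (SD, n = 7) and Dlgap1 at 717 ± 67.4, and the ranges of these 2 overlapped. Dlgap3 at 481 ± 46.7 and Dlg2 at 426 ± 16.3 followed, lower than both and overlapping with each other. Dlg3, encoding SAP102, stood apart from its neighbours at 250 ± 13.2. Dlgap4 (199 ± 26.1), Shank3 (183 ± 14.4) and Shank1 (177 ± 14.9) could not be separated by their ranges, and Shank2 (112 ± 16.6) and Dlgap2 (79.3 ± 10.6) were the lowest and overlapped. The order in HF-HI differed only among overlapping neighbours: Dlgap1 (760 ± 32.0, SD, n = 8) was above Dlg4 (713 ± 39.9), and Shank1 (191 ± 12.3) above Shank3 (179 ± 14.4).

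**Figure D2:**
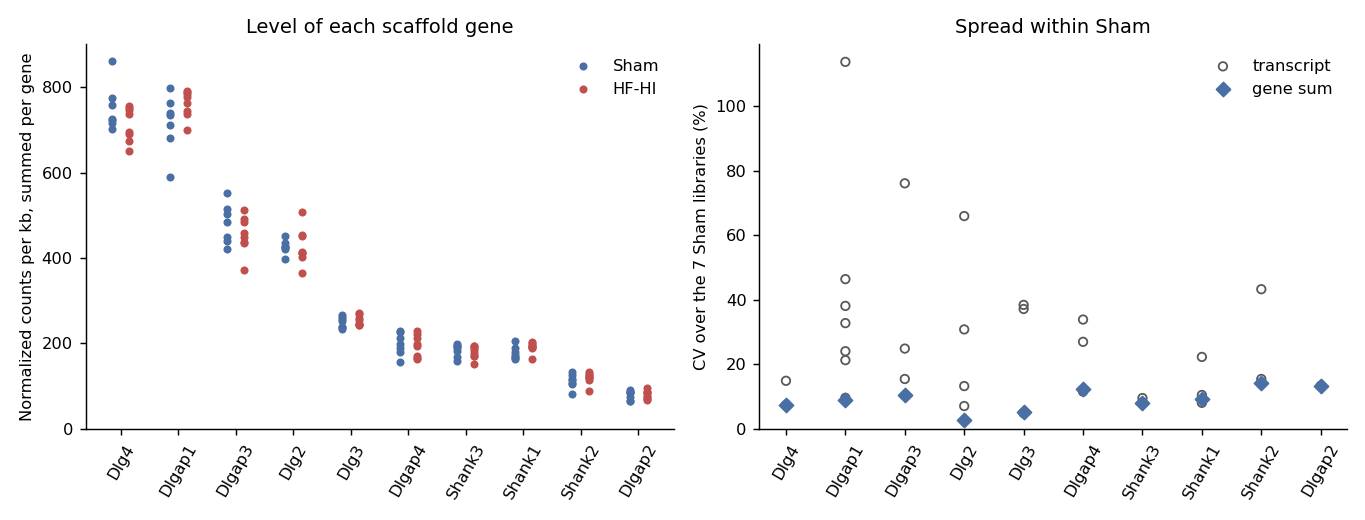
Left, normalized counts per kilobase summed over the listed transcripts of each scaffold gene, with a point for each library, Sham in blue and HF-HI in red. Right, the coefficient of variation over the 7 Sham libraries in percent, for each transcript (circles) and each gene sum (diamonds). Single transcripts reach 114% in Dlgap1, while the gene sums lie between 2.81% and 14.3%.

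In some of the genes the transcripts varied more between Sham libraries than their sum did. The median coefficient of variation over the 7 Sham libraries was 21.8% for the 30 scaffold transcripts and 10.46% for all transcripts, whereas it was 9.20% for the 10 scaffold gene sums and 7.49% for all gene sums. Most genes of the whole table had a single listed transcript, so the 2 transcript medians come from unlike sets. Dlg2, encoding PSD-93, was the plainest case: its 4 transcripts had coefficients of 7.03% to 66.0%, and their sum 2.81%, against the 1.78% that counting error alone would give. In Dlg3 the transcripts ranged from 4.82% to 38.4%, and the sum was at 5.32%. Dlgap1 had transcripts at 9.58% to 114% and a sum at 9.02%. In Shank1 and Shank3 the sum varied about as much as the transcripts, with 9.37% against a transcript median of 10.46% and 7.84% against 8.85%. In Dlg4 the sum was at 7.37%, against a transcript median of 11.1%, with 7.36% for the main transcript and 14.9% for the other. Of the 9 genes with several listed transcripts, 7 had transcripts with differences of both signs, all but Shank1 and Dlg4, which compares with 73.7% of all genes with several transcripts.

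Dlgap1 was the only 1 of the 9 whose transcripts were called in opposite directions (2.99% among all genes with several listed transcripts). With 7 listed transcripts it had more chances of opposite calls than a gene with few, so that share is an unlike background. With depth as a covariate no scaffold transcript was called lower, so no scaffold gene had opposite calls. Dlgap1 lies on the forward strand of chromosome 17 of GRCm38. Its 5 coding transcripts combine 3 choices, which are where transcription starts, whether an exon of 30 bases is included, and which of 2 3′ ends is used. The long skipping transcript, ENSMUST00000133983 (chr17:69969073-70821413), starts farthest upstream, lacks the exon of 30 bases and has the farther 3′ end. The long including transcript, ENSMUST00000146730 (chr17:69969402-70816723), shares its first exon region, contains the exon of 30 bases and has the nearer 3′ end. The middle-start transcript, ENSMUST00000155016 (chr17:70424794-70819804), codes for the same N terminus, with the exon and the farther end. The internal-start transcript, ENSMUST00000148486 (chr17:70522136-70821409), replaces the long first coding exon of 975 bases with one of its own, skips the exon of 30 bases and has the farther end. The short including transcript, ENSMUST00000097288 (chr17:70561552-70816093), starts farther downstream, with the exon and the nearer end. The remaining 2, ENSMUST00000155823 and ENSMUST00000156946, begin near the upstream and the internal start, respectively. In both, a retained intron extends the second exon.

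**Figure D3:**
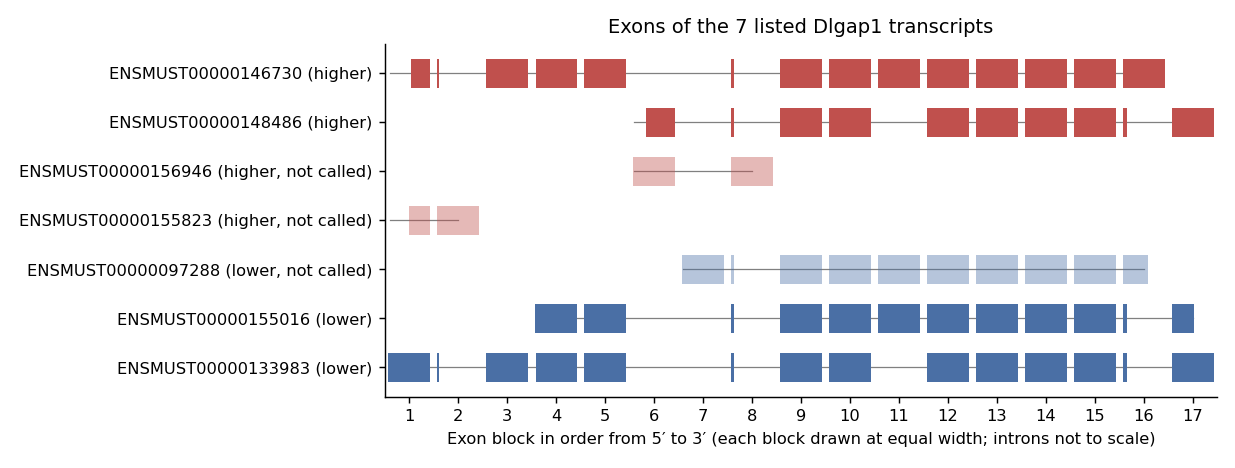
Exons of the 7 listed Dlgap1 transcripts in order from 5′ to 3′. Columns are the 17 blocks of overlapping exons drawn at equal width, not to scale, and block 11 is the exon of 30 bases. Red transcripts were higher and blue lower in HF-HI, and pale colors mark those that were not called. The transcripts with block 11 appear in both colors.

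The stretches by which these transcripts differ are shown because the opposite differences can be read against them. All are in coding sequence, read from the GENCODE M21 transcript sequences (GRCm38, forward strand), with 24 bases of neighbouring sequence in lower case. Capitals mark the exon of 30 bases, chr17:70718196-70718225, which the second line skips.
ENSMUST00000146730, with the exon: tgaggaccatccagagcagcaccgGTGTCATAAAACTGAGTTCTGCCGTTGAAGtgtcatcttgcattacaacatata
ENSMUST00000133983, without the exon: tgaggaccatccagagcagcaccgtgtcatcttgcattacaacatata

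Capitals in the next lines mark the coding sequence after the last shared base of the 2 ends, up to but not including the stop codon. At the nearer end (chr17:70815347-70815409) the exon runs on, with GT as its first bases where the other transcripts splice out. At the farther end (chr17:70818025-70818231) a further exon follows, which codes for the C-terminal tail that is known to bind Shank. The nearer end holds 63 coding bases at a GC content of 38.1%, and the farther 207 at 72.5%.
ENSMUST00000146730, nearer end: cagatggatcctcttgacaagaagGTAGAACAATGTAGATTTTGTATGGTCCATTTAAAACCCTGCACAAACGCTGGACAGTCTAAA
ENSMUST00000133983, farther end: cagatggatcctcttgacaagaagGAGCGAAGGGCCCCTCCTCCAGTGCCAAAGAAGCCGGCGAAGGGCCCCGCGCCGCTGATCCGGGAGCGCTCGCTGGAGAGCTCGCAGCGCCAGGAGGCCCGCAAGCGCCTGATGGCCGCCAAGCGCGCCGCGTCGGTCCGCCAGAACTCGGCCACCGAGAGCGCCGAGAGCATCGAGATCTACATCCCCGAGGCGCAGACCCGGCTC

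The first coding exon of the internal-start transcript (chr17:70522188-70522262, in capitals), which gives it an N terminus of its own, is joined to the exon that all 5 coding transcripts share.
ENSMUST00000148486, own start: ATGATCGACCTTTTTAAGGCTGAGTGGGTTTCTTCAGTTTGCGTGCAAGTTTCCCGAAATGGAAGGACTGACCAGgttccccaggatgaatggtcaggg

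The internal-start transcript held most of the Dlgap1 reads. Its level ran from 1731 to 2162 normalized counts in Sham, with a median of 1900, and from 2060 to 2448 in HF-HI, with a median of 2186. It exceeded the Sham median in all 8 HF-HI libraries and every Sham library in 4 of them, so the groups overlapped in part. The means were 1922 ± 184 (SD, n = 7) and 2221 ± 130 (SD, n = 8), a log2 ratio of 0.21, with a VSD difference of 0.13 ± 0.033 (SE). It was called in each of the 15 fits that left out 1 library and with depth as a covariate (0.12). No base of it is private to it, so its value is uncertain.

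The long including transcript was nearly absent from some Sham libraries. Its level ran from 0.746, which is 1 read, to 450.0 in Sham, with a median of 95.7, and from 199 to 523 in HF-HI, with a median of 351. Sham libraries were widely scattered and overlapped with HF-HI, of which all 8 lay above the Sham median and 2 above every Sham library. Means were 156 ± 177 and 356 ± 116, a log2 ratio of 1.19, with a VSD difference of 0.40 ± 0.13. The size depended on the scale: the mean difference was 2.87 on log2 of normalized counts plus 1 and 2.78 in voom. It was called in every fit that left out 1 library, but not in the 6 Sham and 3 HF-HI libraries with a size factor above 1 (0.36 ± 0.20). Its coefficient of variation within Sham, 114%, exceeded that of 99.9% of all transcripts, while counting error would give 7.04%.

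The long skipping transcript ran from 268 to 1027 in Sham, with a median of 522, and from 183 to 655 in HF-HI, with a median of 259. In 6 of 8 HF-HI libraries it lay under the Sham median and in 4 under every Sham library. Means were 636 ± 295 and 351 ± 191, a log2 ratio of −0.86, and the VSD difference was −0.29 ± 0.11. The call ended without Sham replicate 5 (−0.23), without Sham replicate 6 (−0.24) with depth as a covariate (−0.22 ± 0.14) and in the libraries with a size factor above 1 (−0.27 ± 0.17). The middle-start transcript ran from 91.7 to 276 in Sham, with a median of 177, and from 34.5 to 226 in HF-HI, with a median of 93.9. It was again lower than the Sham median in 6 of 8 HF-HI libraries, and the groups overlapped. Only 2 of its 4712 bases are private to it, so its value is uncertain. Its means were 185 ± 70.6 and 111 ± 68.0, with a VSD difference of −0.16 ± 0.068. It was called in only 8 of the 15 fits that left out 1 library, losing the call when 1 of Sham replicates 1, 2 and 4 or HF-HI replicates 3, 6, 7 and 8 was left out (−0.15 to −0.13), and lost it with depth as a covariate (−0.16 ± 0.085).

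The 3 other transcripts of Dlgap1 were not called. The short including transcript had 240 ± 78.6 and 195 ± 50.2 normalized counts, ENSMUST00000156946 169 ± 36.0 and 198 ± 21.7, and ENSMUST00000155823 144 ± 34.7 and 164 ± 38.6. Without Sham replicate 6, ENSMUST00000156946, whose first exon lies at the internal start, was called (VSD difference 0.06), as it was with depth as a covariate (0.08). The sum of all 7 spanned 2835 to 3776 in Sham and 3305 to 3778 in HF-HI, with means of 3452 ± 312 and 3597 ± 164.

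**Figure D4:**
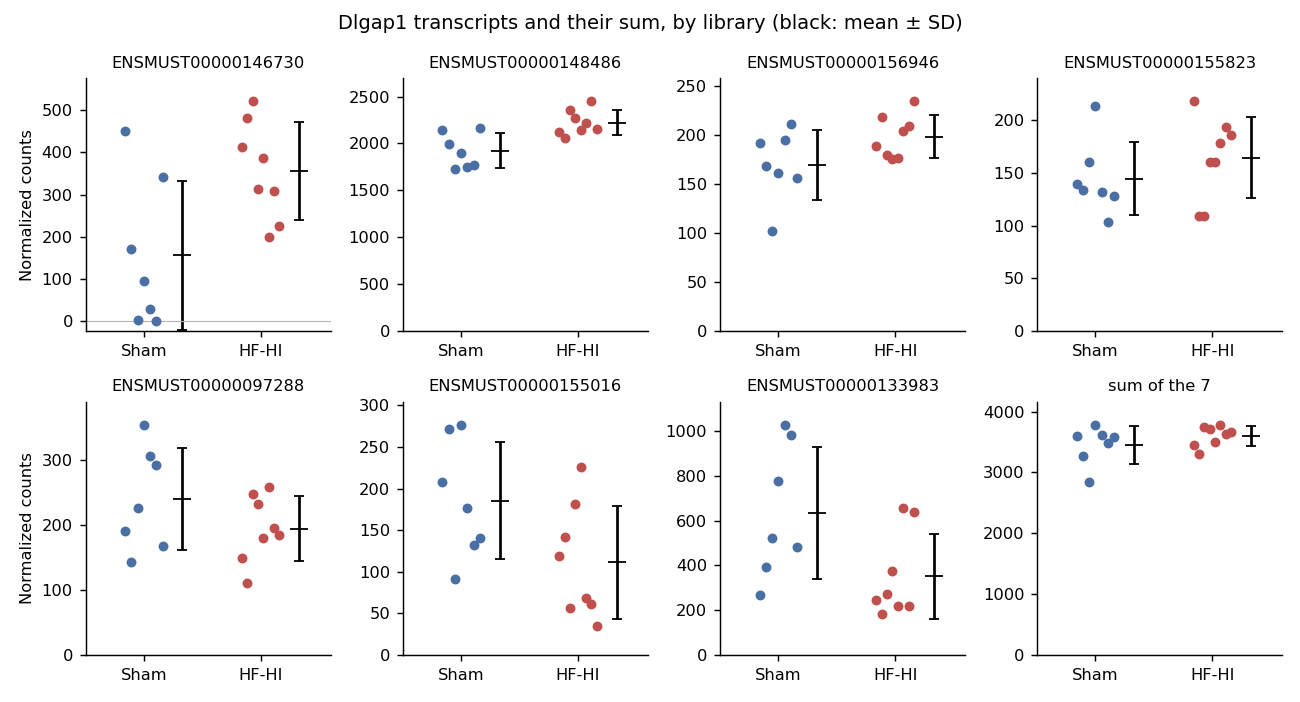
Normalized counts of each Dlgap1 transcript and of their sum in every library, Sham in blue and HF-HI in red, with the mean and SD in black and each vertical axis on its own scale. The long including transcript ENSMUST00000146730 spans 0.746 to 450.0 in Sham and 199 to 523 in HF-HI, while the sum of the 7 overlaps almost fully between the groups.

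Expressed as shares, the internal-start transcript made up 55.9 ± 5.77% of the Dlgap1 sum in Sham and 61.8 ± 2.72% in HF-HI. The transcripts with the long first coding exon together made up 30.9 ± 4.72% of the coding counts in Sham and 25.3 ± 3.06% in HF-HI, under the Sham median in all 8 HF-HI libraries. Within the pair of long transcripts, the share of the one with the exon of 30 bases was 21.3 ± 24.3% in Sham, between 0.0760% and 62.7%, and 52.3 ± 18.7% in HF-HI, between 23.3% and 72.5%. It exceeded the Sham median of 10.99% in each of the 8 HF-HI libraries, and every Sham library in 3.

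The exon of 30 bases was present in 18.3 ± 4.81% of the coding counts of Dlgap1 in Sham and 20.5 ± 4.40% in HF-HI. Of the 3 transcripts with it, the long including transcript was called higher and the middle-start transcript lower. The short including transcript was not called. The nearer 3′ end made up 12.5 ± 3.95% in Sham and 17.1 ± 3.25% in HF-HI, above the Sham median of 10.6% in all 8 HF-HI libraries with 2 above every Sham library. The 2 long transcripts summed to 791 ± 201 normalized counts (Sham) and 707 ± 120 (HF-HI), and the 5 coding transcripts to 3139 ± 283 and 3235 ± 170. With the middle-start transcript added to the long pair, the 3 summed to 977 ± 210 and 819 ± 105, under the Sham median in all 8 HF-HI libraries and under every Sham library in 1.

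Whether the transcripts called in opposite directions also moved against each other within a group was asked with the difference between the group means removed. The pairs were picked by their calls in these same libraries, so the p-values below describe chosen pairs. Over the 15 libraries, and across the 4 pairs of a higher and a lower Dlgap1 transcript, the long including and the long skipping transcript had a Pearson r of −0.51 on the log2 scale (permutation test within groups, 100000 draws, two-sided, p = 0.0599, Benjamini-Hochberg adjusted p = 0.130). Spearman's rho was −0.66 (permutation p = 0.00830, adjusted p = 0.0332), so the rank relation passed the threshold and the linear one did not. On the VSD scale r was −0.72 (permutation adjusted p = 0.0216). Sham replicates 3 and 6 had the lowest levels of the long including transcript, 2.45 and 0.746 normalized counts. Without them r was −0.78 (permutation adjusted p = 0.00256) and rho −0.69 (permutation adjusted p = 0.0558). With depth removed as well, r was −0.56 (permutation adjusted p = 0.102) and rho −0.59 (permutation adjusted p = 0.0679). These transcripts share most of their exons, and the part of the division of shared reads in the relation was not tested.

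The other 3 pairs did not pass. The internal-start and the long skipping transcript had an r of −0.42 and a rho of −0.36 (permutation adjusted p = 0.179 and 0.275), and leaving out Sham replicates 1 and 7 gave an r of −0.18. The internal-start and the middle-start transcript had an r of −0.01 and a rho of 0.03 (permutation adjusted p = 0.970 and 0.931), and 0.0012 without the same libraries. The long including and the middle-start transcript, which both contain the exon of 30 bases, had an r of 0.37 and a rho of 0.46 (permutation adjusted p = 0.130 and 0.105), and an r of 0.11 without Sham replicates 3 and 6.

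**Figure D5:**
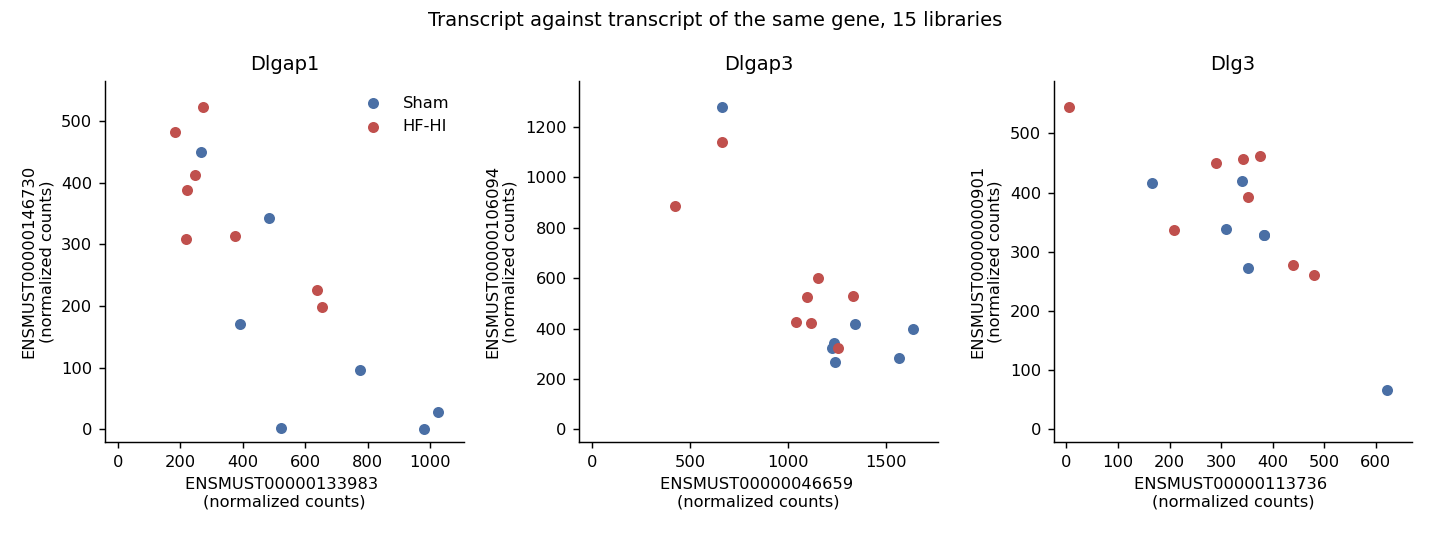
Normalized counts of one transcript against another of the same gene in each of the 15 libraries, Sham in blue and HF-HI in red, for Dlgap1, Dlgap3 and Dlg3. For Dlgap1, libraries low in the long skipping transcript ENSMUST00000133983 tend to be high in the long including transcript ENSMUST00000146730. For Dlgap3, Sham replicate 2 stands at the upper left, away from the other Sham libraries.

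Dlgap2 had a single listed transcript, ENSMUST00000133298 (chr8:14095875-14847680), at 357 ± 47.5 normalized counts (Sham) and 359 ± 42.5 (HF-HI). It ran from 294 to 409 in Sham, with a median of 381, and from 300.03 to 424 in HF-HI, with a median of 361. The groups overlapped, with a VSD difference of 0.00 ± 0.028.

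Dlgap3, whose product SAPAP3 is abundant at striatal synapses, lies on the forward strand of chromosome 4 and had 3 coding transcripts. ENSMUST00000046659 (chr4:127169204-127237022) and ENSMUST00000106094 (chr4:127172880-127237022) code for the same protein and differ in their first, noncoding exon. Only 162 of 3884 bases of the former and 485 of 4207 bases of the latter are private, so both values are uncertain. The former ran from 663 to 1636 in Sham, with a median of 1239, and from 422 to 1330 in HF-HI, with a median of 1109, for a VSD difference of −0.17 ± 0.11. The latter ran from 269 to 1279 in Sham, with a median of 341, and from 322 to 1138 in HF-HI, with a median of 527, for a difference of 0.15 ± 0.13. In Sham replicate 2 the order of the 2 was turned around, with 663 of the former and 1279 of the latter, and in no other Sham library was the latter above 417. The same order was found in HF-HI replicate 7 (662 and 1138) and HF-HI replicate 8 (422 and 886). Without Sham replicate 2 both were called, in opposite directions (−0.24 and 0.26). Without HF-HI replicate 7 the differences were −0.14 and 0.09 and without HF-HI replicate 8 −0.10 and 0.11, none of them called. Together they summed to 1746 ± 208 (Sham) and 1617 ± 183 (HF-HI).

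The third, ENSMUST00000106092 (chr4:127194613-127236368), was the scarcest and was called higher. It ran from 94.6 to 146 in Sham, with a median of 112, and from 125 to 189 in HF-HI, with a median of 146. Each of the 8 HF-HI values was above the Sham median, and 4 were above every Sham library. The means were 118 ± 18.1 and 147 ± 20.1, a log2 ratio of 0.32, with a VSD difference of 0.06 ± 0.021, and it was called in all 15 fits that left out 1 library and with the striatal markers as a covariate (0.06), though not with a replicate block (0.06 ± 0.026). It has no private base, so its value is uncertain, and it differs from the others in coding sequence by lacking 33 bases at the start of an exon. These bases (chr4:127235385-127235417) are shown in capitals because reads across this junction are what sets the transcript apart.
ENSMUST00000046659, with the 33 bases: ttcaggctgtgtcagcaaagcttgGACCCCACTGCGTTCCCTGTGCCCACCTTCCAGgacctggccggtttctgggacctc
ENSMUST00000106092, without them: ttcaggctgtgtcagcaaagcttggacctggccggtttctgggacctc

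Dlgap4 lies on chromosome 2. Its main transcript, ENSMUST00000109567 (chr2:156613705-156764361), ran from 555 to 744 in Sham, with a median of 688, and from 464 to 804 in HF-HI, with a median of 556. Of the HF-HI libraries, 7 lay under the Sham median and 4 under every Sham library, while 1 lay above them all. The VSD difference was −0.08 ± 0.040, which was not called with all libraries but was called in 4 fits that left out 1, namely each of Sham replicates 6 and 7 and HF-HI replicates 3 and 5 (−0.11 to −0.09). With depth as a covariate the difference was −0.04 ± 0.046, and in the libraries with a size factor above 1 it was 0.0017. Its share of the Dlgap4 sum was 75.4 ± 4.81% in Sham and 68.0 ± 6.24% in HF-HI. The shorter coding ENSMUST00000099145 had 103 ± 34.7 and 143 ± 71.0 normalized counts, with HF-HI replicate 4 at 306, and the retained-intron ENSMUST00000127944 had 120 ± 32.2 and 130 ± 20.9.

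All 3 listed transcripts of Shank1 (chromosome 7) had small positive differences, none of them called. ENSMUST00000107935 (chr7:44312688-44357487) ran from 515 to 702 in Sham, with a median of 589, and from 489 to 762 in HF-HI, with a median of 676. The groups overlapped, with a VSD difference of 0.04 ± 0.036. ENSMUST00000107934 had 347 ± 27.9 and 365 ± 52.7 normalized counts, and ENSMUST00000107938, which is longer mainly in its untranslated ends, 314 ± 70.0 and 352 ± 77.9. The first 2 share all of their bases with another transcript and are uncertain singly. As a gene, Shank1 exceeded its Sham median of 1232 in 7 of 8 HF-HI libraries, and none of them reached the highest Sham library at 1488.

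For Shank2 (chromosome 7), ENSMUST00000105900 (chr7:144175529-144424494) ran from 434 to 682 in Sham, with a median of 547, and from 386 to 629 in HF-HI, with a median of 557. The groups overlapped, with a VSD difference of −0.01 ± 0.040. ENSMUST00000146006, which starts downstream, had 339 ± 147 and 403 ± 55.7 normalized counts, and Sham replicate 1 had only 34.3 of it. In that library ENSMUST00000105900 made up 94.8% of the Shank2 sum, against 51.1% to 68.0% in the other Sham libraries.

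Shank3 (chromosome 15), a gene whose loss is a known cause of autism-related behavior in mice, had transcripts with the same 3′ end. ENSMUST00000039074 (chr15:89499857-89560261) ran from 843 to 1112 in Sham, with a median of 983, and from 808 to 1036 in HF-HI, with a median of 956. It has no private base, so its value is uncertain. ENSMUST00000109309, which has 234 bases more at its 5′ end, had 325 ± 26.6 and 348 ± 37.8 normalized counts. The differences were of opposite sign but small, −0.03 ± 0.029 and 0.03 ± 0.022 in VSD. The share of ENSMUST00000109309 was 24.8 ± 2.01% in Sham and 26.9 ± 1.56% in HF-HI, above the Sham median in 7 of 8 HF-HI libraries. Antisense genes overlap exons of Shank3 (Gm15609, 271 bases), Shank1 (1700008O03Rik, 339 bases) and Dlgap1 (AC079441.1, 92 bases). The libraries were stranded, but whether the counting used strand was not stated.

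Dlg2 (chromosome 7) had the smallest spread of the 10 gene sums in Sham, at 2628 ± 73.8 normalized counts, and 2645 ± 129 in HF-HI. Its main transcript, ENSMUST00000107196 (chr7:91090706-92449247), ran from 1813 to 2187 in Sham, with a median of 1989, and from 1785 to 2417 in HF-HI, with a median of 1994. The retained-intron ENSMUST00000146563 spanned 25.8 to 286 in Sham and 0 to 383 in HF-HI, and ENSMUST00000074273 122 to 348 and 20.002 to 489. These 2 were the most scattered of the gene, and their VSD differences, 0.01 ± 0.14 and −0.08 ± 0.10, were smaller than their errors. The processed transcript ENSMUST00000138389 had 255 ± 33.7 and 243 ± 83.4 normalized counts, with a larger spread in HF-HI.

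Dlg3 lies on the X chromosome, and its 3 listed transcripts are alternative combinations of 2 exons in otherwise shared coding sequence. These correspond in place to the inserts known for SAP102, the first near the N terminus and the second between the SH3 and guanylate kinase domains. ENSMUST00000087984 (chrX:100767749-100818408) contains both, ENSMUST00000113736 only the first and ENSMUST00000000901 neither. Because the coding sequences of the 3 differ by these letters alone, they are shown in capitals, for the exon of 54 bases (chrX:100771307-100771360) and that of 42 bases (chrX:100811502-100811543).
ENSMUST00000087984, with the 54 bases: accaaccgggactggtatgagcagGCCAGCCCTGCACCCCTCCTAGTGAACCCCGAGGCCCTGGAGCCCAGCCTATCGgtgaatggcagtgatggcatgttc
ENSMUST00000000901, without the 54 bases: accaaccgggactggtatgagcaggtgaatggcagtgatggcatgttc
ENSMUST00000087984, with the 42 bases: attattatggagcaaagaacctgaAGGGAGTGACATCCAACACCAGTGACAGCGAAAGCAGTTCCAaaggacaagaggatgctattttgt
ENSMUST00000113736, without the 42 bases: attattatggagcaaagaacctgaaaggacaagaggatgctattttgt

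The Dlg3 transcript with both exons was steady in Sham, from 530 to 610 with a median of 557, and ran from 453 to 660 in HF-HI, with a median of 518. Its VSD difference was −0.02 ± 0.030. The transcript with neither spanned 67.3 to 419 in Sham and 261 to 545 in HF-HI, with a difference of 0.12 ± 0.076, and 4 HF-HI libraries lay above every Sham library. The transcript with the first exon alone spanned 165 to 622 in Sham and 4.93 to 480.1 in HF-HI, with a difference of −0.10 ± 0.12. It has no private base and the transcript with neither exon has only 1, so both values are uncertain. The extremes of both fell in the same libraries, Sham replicate 2 with the 67.3 and the 622 and HF-HI replicate 5 with the 545 and the 4.93. Other libraries did not follow this, such as HF-HI replicate 8, which with 337 and 209.5 was under the HF-HI mean in both. Their sum, 675 ± 60.3 in Sham and 709 ± 106 in HF-HI, was steadier than either. The exon of 54 bases was present in 74.7 ± 9.88% of the Dlg3 counts in Sham and 68.3 ± 7.65% in HF-HI, and that of 42 bases in 45.3 ± 2.56% and 43.4 ± 7.23%.

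Dlg4 (chromosome 11) had 2 listed transcripts, and neither was called. ENSMUST00000018700 (chr11:70029525-70045140) ran from 1532 to 1881 in Sham, with a median of 1574, and from 1360 to 1732 in HF-HI, with a median of 1544. The groups overlapped, with 4 HF-HI libraries under every Sham library and none above, and the VSD difference was −0.04 ± 0.032. ENSMUST00000108588, which starts upstream, had 537 ± 79.9 and 511 ± 64.9 normalized counts. Its share of the gene was 24.9 ± 2.73% in Sham and 25.1 ± 3.68% in HF-HI.

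Genes whose summed reads followed the mean of the 10 scaffold genes most closely within the groups, over the 15 libraries and on the log2 scale, were Dpysl2 (Pearson r = 0.89), a regulator of axonal microtubules, Bsn (0.89), a scaffold of the presynaptic active zone, Atmin (0.86) and Atp1b2 (0.84), a subunit of the sodium pump. They were named for their rank, so no p is given, and libraries share depth and dissection. Within the 10, Shank1 followed their mean most closely (r = 0.83) and Dlgap1 least (0.34), each being part of that mean.

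Of 56 further genes of the postsynaptic density, 51 were listed, with 111 transcripts. Of these 13 were called, 8 higher and 5 lower, which is 11.7% beside the 8.83% of the whole table. The median log2 ratio was 0.01 over the list and −0.00 over all transcripts, and no transcript of the list passed the adjusted threshold (smallest limma adjusted p 0.346). Among those called higher were ENSMUST00000026436 of Baiap2, a regulator of actin in spines (94.7 ± 49.9 to 155 ± 39.3 normalized counts), ENSMUST00000030806 of Kif1b, a kinesin (395 ± 72.9 to 476 ± 61.5), and ENSMUST00000148602 of Cttnbp2, which binds cortactin (363 ± 56.6 to 437 ± 50.1). ENSMUST00000110909 of Arhgef7, an exchange factor for Rac (515 ± 43.8 to 583 ± 51.8), and ENSMUST00000026750 of Cnksr2, which binds Dlg proteins (2316 ± 95.5 to 2466 ± 102), were also higher, while the other three called higher had smaller VSD differences.

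Among those called lower were ENSMUST00000091394 of Abi1 (211 ± 73.2 to 120 ± 96.2) and ENSMUST00000052332 of Abi2 (2872 ± 36.0 to 2694 ± 127), which are subunits of the WAVE complex. The other transcripts called lower were ENSMUST00000075180 of Baiap2 (955 ± 127 to 790.4 ± 136), ENSMUST00000038696 of Ppp1r9b, encoding spinophilin (3170 ± 228 to 2873 ± 301), and ENSMUST00000109686 of Neto2, an auxiliary subunit of kainate receptors (1176 ± 49.8 to 1039 ± 89.3). For Abi2 and Neto2, 6 of 8 HF-HI libraries lay under every Sham library. Baiap2, a direct binding partner of Shank proteins, was like Dlgap1 in having transcripts called in opposite directions while its gene sum was not called, with a voom log2 difference of −0.06. With depth as a covariate 5 of the 111 were called, 4 higher and 1 lower, beside 533 of all 10370 transcripts. No more than 1 of the transcripts named as lower therefore kept its call, and which ones did is not given here.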

How the data were processed

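Bulk cortical total RNA was sequenced in 7 Sham and 8 HF-HI libraries. Per the study's methods, the authors aligned stranded reads to mm10 with STAR, estimated counts per transcript with eXpress, which divides reads that transcripts share, and normalized with DESeq2. The deposited values are variance-stabilized, on a log2 scale, and the annotation release was not given in the sources used here. The transformation was inverted, and 100% of the values were whole reads within 0.1 reads. When a level doubles from 100 normalized counts its VSD gains 0.20, and from 1000 it gains 0.53. Transcript names, exons and sequences came from GENCODE M21, which matched 10241 of the 10370 transcripts.

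Transcripts were tested with limma 3.58.1 (R 4.3.3, eBayes with trend, two-sided) on the VSD values of all transcripts, since the deposited unit is not counts. Reads summed per gene were tested with limma voom over all genes, and p-values were Benjamini-Hochberg adjusted. The code was tested on simulated data. The members and all lists were chosen with earlier results of these data known. All listed scaffold transcripts were named, with the range for those called and for the most abundant of each gene, up to 5 higher and 5 lower called transcripts of the partner list, and the 5 genes most alike, of which 1 is not reported here. Alternatives changed the scale, normalization, filter, weights, depth, striatal level, replicate block and libraries.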

Additional observations from a re-analysis of the deposited data

Results flagged for a closer look

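Each group of libraries was checked for a single library that stood apart, by the gap to its nearest neighbour as a share of the range of the group (Dixon's criterion). Of 80 groups, 9 had such a library, and chance gives this in about 1 in 20 independent groups. These groups are not independent, since each gene sum holds its own transcripts, so no excess is read from the 9. The 9 values came from 6 libraries.

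In Dlgap3, Sham replicate 2 had 663 normalized counts of ENSMUST00000046659, while the other Sham libraries had 1226 to 1636. The same library had 1279 of ENSMUST00000106094, while the others had 269 to 417, so the transcript with the second start had the higher estimate there. This was also so in HF-HI replicates 7 (662 and 1138) and 8 (422 and 886), where the same criterion marked no library. Few bases are private to either transcript, so these estimates are uncertain. HF-HI replicate 2 had 189 of ENSMUST00000106092, above the 125 to 152 of the other HF-HI libraries. In Dlgap4, HF-HI replicate 4, the library of least depth, had 306 of ENSMUST00000099145, above 71.4 to 154 in the others.

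In Shank1, Sham replicate 3 had 287 normalized counts of ENSMUST00000107934, under the 342 to 369 of the other Sham libraries. For Shank2, Sham replicate 1 had 34.3 of ENSMUST00000146006, where the others had 320.4 to 506, and HF-HI replicate 2 had a gene sum of 699, where the others had 905 to 1064. Of Dlg3 ENSMUST00000000901, Sham replicate 2 had 67.3, where the others had 272 to 419. Of Dlg4 ENSMUST00000018700, Sham replicate 4 had 1881, above the 1532 to 1618 of the others. What set these libraries apart was not tested.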

How the results depend on the processing

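With a filter at a mean of 300 normalized counts, 525 of 5438 transcripts and 2 of 19 scaffold transcripts were called. Dlgap1 ENSMUST00000148486 and ENSMUST00000133983 kept their calls. Dlgap1 ENSMUST00000146730 and ENSMUST00000155016 and Dlgap3 ENSMUST00000106092 fell under the filter. With depth as a covariate the calls were 533 of all transcripts and 5 of the partner list, and no scaffold gene had transcripts called in opposite directions (0 genes). With only the 6 Sham and 3 HF-HI libraries of a size factor above 1, they were 541, 3 scaffold transcripts and 2 of the partner list. Leaving out 1 library at a time gave 748 to 987 calls over all transcripts, 4 to 6 scaffold transcripts, 8 (without HF-HI replicate 4) to 18 (without HF-HI replicate 5) of the partner list against 13 with all libraries, 0 to 1 scaffold gene sums (1 being Shank1, without Sham replicate 4 or HF-HI replicate 8) and 1 to 2 genes with opposite calls (2 without Sham replicate 2, Dlgap1 and Dlgap3).

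Group centered r of Dlgap1 ENSMUST00000146730 and ENSMUST00000133983 went from −0.51 to −0.72 on the VSD scale and −0.78 without Sham replicates 3 and 6, both past the adjusted threshold. That of ENSMUST00000148486 and ENSMUST00000155016, −0.01, changed sign to 0.0070 on the VSD scale and 0.0012 without Sham replicates 1 and 7. The causes were not tested. Of 989 alternative values of single differences, 961 kept their direction and side of the threshold or stayed within the spread, 14 were no longer called, 12 became called, 2 moved and 0 reversed after being called.

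Same-numbered libraries of the groups did not deviate together (r −0.138 to 0.0905 over 7 pairs, with 1 Sham library closest to its own number), so the numbers were not taken to pair them. With a replicate block, in which HF-HI replicate 8 has no partner and does not bear on the difference, 891 transcripts, 5 scaffold transcripts (without Dlgap3 ENSMUST00000106092, with Dlgap4 ENSMUST00000109567), 15 of the partner list and 1 scaffold gene sum (Shank1, 0.15) were called.

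Depth limits the lowest values, since 1 read is worth up to 1.997 normalized counts. Changes with depth as a covariate were not confined to such values. Of all transcripts 533 were called with it and 916 without it. Dlgap1 ENSMUST00000133983, with means of 636 in Sham and 351 in HF-HI, lost its call.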
